A study of Mus musculus with 11 samples.

Results

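The Notch pathway was examined through 10 genes in the mouse forelimb bud at E10.5, with RNA-seq read counts from 11 libraries of ribosomal-RNA-depleted total RNA. The genes were chosen by name, as receptors (Notch1, Notch2, Notch3), ligands (Jag1, Jag2, Dll1), a modifier of the receptors (Lfng) and targets (Hes1, Hey1, Heyl). All 10 were among the 47517 gene names of the table, and all 10 had enough reads to be tested. Mutant embryos (6 libraries) carried Gmnn f/f with Prx-Cre, and control embryos (5 libraries) carried Gmnn +/f with Prx-Cre, all on a C57BL/6 background. Gmnn encodes Geminin, an inhibitor of the replication licensing factor Cdt1. Both groups thus carried the Cre transgene and at least 1 floxed allele, so that controls are heterozygous for the deletion wherever Cre has acted. Prx-Cre is active in limb bud mesenchyme, and the ectoderm, blood vessels and immigrant muscle precursors of the bud are not its main targets. Each embryo belonged to 1 of 4 litters, called A to D here, and every litter held both genotypes.

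Notch receptors span the cell membrane and bind ligands of the Delta and Jagged families on neighbouring cells. Binding leads to cleavage of the receptor, and its intracellular part enters the nucleus, joins the DNA-binding protein Rbpj and switches on genes of the Hes and Hey families, which are repressors of transcription. Fringe proteins such as Lfng add sugars to the receptors and so alter which ligands they answer. In limb buds the pathway is known for its roles in the apical ectodermal ridge, where Jag2 signals to Notch1, and in the vessels, and later in cartilage, muscle and joints.

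Rbpj binds sequences around the core TGGGAA, and Lfng is shown here because it was the 1 gene, of those with a promoter window, in which that core was present. RefSeq promoter windows, which hold the bases before and just after the start of transcription (GRCm38.p6), were matched by symbol for 7 of the 10 genes. The core was searched on both strands, with TTCCCA as its reverse form, and so was the longer GTGGGAA, which contains it. The core was present in 25.56% of the 32851 windows of this length and the longer form in 6.383%. The stretch of Lfng lies on the plus strand at chr5:140607191-140607250, from -150 to -91 relative to the start, with both matches to the core in capitals.

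Lfng: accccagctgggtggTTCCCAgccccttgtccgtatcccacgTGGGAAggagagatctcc

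A match describes the letters only and was not tested for binding. Lfng itself was among the least abundant genes of the set in these buds, as described below.

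Libraries held 14721181 to 19733288 counts. Gmnn, the targeted gene, was at 139.3 to 238.9 CPM (the read count scaled to library depth, here with TMM-scaled totals) in controls and at 99.5 to 137.7 CPM in mutants, so the groups did not overlap. Of 10 limb mesenchyme markers, including Prrx1 and Tbx5, all were tested and none passed an adjusted p of 0.05 between genotypes, and their summed level was 635.9 to 828.8 CPM in controls and 643.1 to 750.4 CPM in mutants. One property of the libraries moved with genotype and touches some of the results. It is the T-run index, the mean over a library's reads of the longest run of T bases in the transcripts of the read's gene. It was 10.834, 10.345, 10.836, 10.649 and 9.7484 bases in controls 1 to 5, and 9.8612, 9.2047, 9.6445, 9.6251, 10.236 and 9.8458 bases in mutants 1 to 6. Control 5 (litter D) thus lay among the mutants by this index, and mutant 5 (litter C) lay closest to the other controls. By Gmnn, control 5 was the highest library (238.9 CPM) and mutant 5 was at 102.2 CPM. Over controls 1 to 5, Gmnn ran in the opposite order to the index, and the reason was not tested. For Notch2, Jag1, Hes1 and Hey1, the log2 fold change is also given below without control 5 and mutant 5.

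Per length, Hes1 was the most abundant of the 10 transcripts and Dll1 the least. The levels, in FPKM (reads scaled to the deposited exon length of the gene and to the TMM-scaled total), spanned over 2 orders of magnitude. In controls the mean was 31.7 ± 5.33 FPKM for Hes1, 21.2 ± 10.2 for Notch2, 11.4 ± 6.32 for Jag1, 7.95 ± 3.46 for Hey1 and 3.91 ± 0.663 for Notch3 (SD, n = 5 throughout). The other 5 were near or under 1 FPKM, with means of 1.09 ± 0.281 for Jag2, 0.849 ± 0.238 for Notch1, 0.787 ± 0.274 for Heyl, 0.621 ± 0.215 for Lfng and 0.198 ± 0.0689 for Dll1 (SD, n = 5). Hes1 was higher than 87.25% and Dll1 higher than 8.027% of the genes tested, by control mean FPKM.

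**Figure D1:**
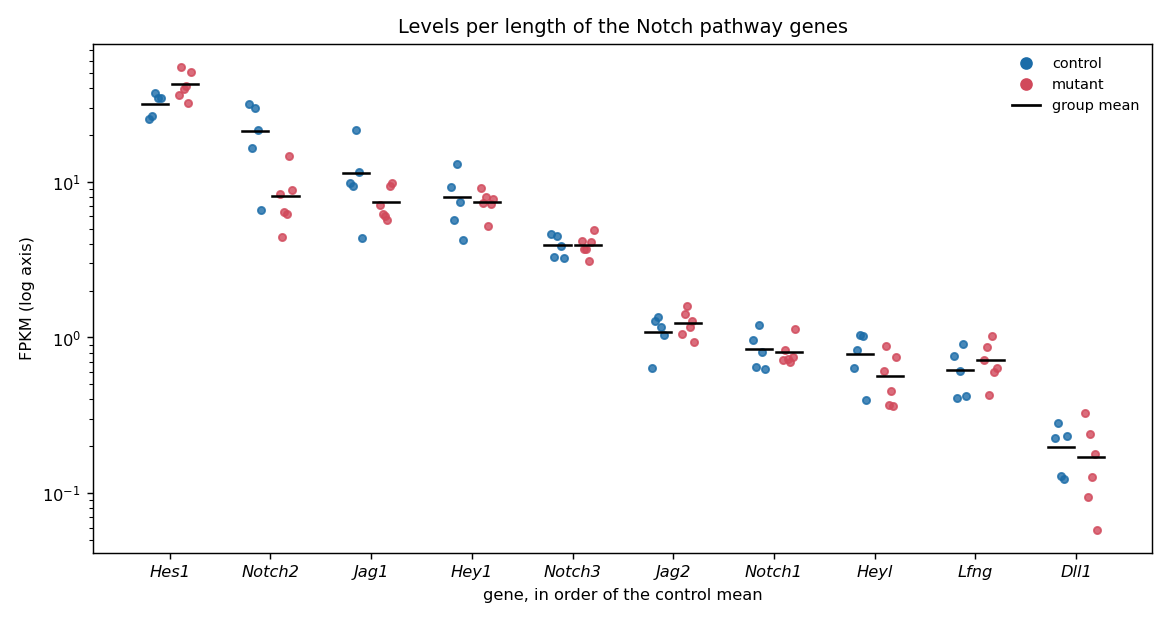
Each point is the FPKM of a gene in 1 library (blue for the 5 controls, red for the 6 mutants) on a log axis, and bars are group means. Genes are ordered by the control mean, from Hes1 at 31.7 to Dll1 at 0.198 FPKM. The gap between the group means is widest for Notch2.

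Some steps of this order held in each library and others did not. Hey1 was above Notch3, Notch3 above Jag2 and Lfng above Dll1 in 11 of 11 libraries. Hes1 exceeded Notch2 in 10 of 11, Notch2 exceeded Jag1 and Jag2 exceeded Notch1 in 9 of 11, and Jag1 exceeded Hey1 and Notch1 exceeded Heyl in 8 of 11. Heyl and Lfng could not be ranked, since Heyl was the higher in 5 of 11 libraries. The order of Jag2 and Notch1 depends on the length used. Their deposited exon lengths are 4054 and 14232 bases, and their longest coding transcripts in GENCODE M21 are 5106 and 9488 bases. In the mutants, Hey1 ranked above Jag1 and Lfng above Heyl by mean FPKM, and the other ranks were those of the controls.

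The genotypes were then compared with a model that has litter as a block. None of the 10 genes passed an adjusted p of 0.05 (edgeR quasi-likelihood test, Benjamini-Hochberg adjustment over 15821 genes), where 2.18% of all genes tested passed (345 genes, 111 higher and 234 lower; with upper-quartile scaling 360, 155 higher and 205 lower). At an unadjusted p under 0.05 there were 3 of 10, Notch2, Jag1 and Hes1, against a background of 21.4%. DESeq2 called Notch2 and Hes1, beside 9.46% of all genes with an adjusted p in that tool, and limma-voom called Notch2, beside 2.77% of all genes. The median log2 fold change of the 10 was 0.01, with 5 higher and 5 lower in mutants, beside a median of 0.00 over all genes tested. In no gene of the 10 were control and mutant CPM free of overlap, which 2.59% of all genes tested were. In 2 of the 10, Notch2 and Notch3, the difference had the same sign in all 4 litters, as it did in 26% of all genes tested. The libraries came from separate embryos, and p-values rest on the spread left between these embryos after litter and genotype are fitted.

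**Figure D2:**
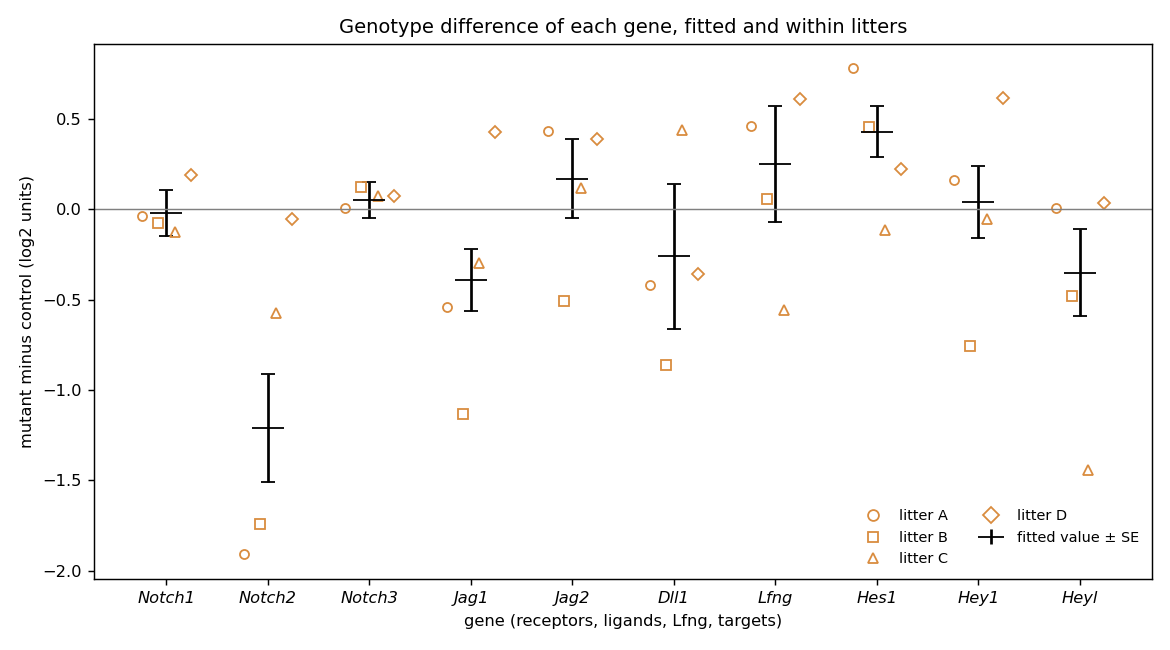
Black bars are the fitted mutant minus control differences with SE on the log2 scale, and open symbols are the differences within litters A to D. Notch2 has the largest fitted difference of the 10 (-1.21), and its litters run from -1.91 (A) to -0.05 (D). Notch1 and Notch3 sit near 0 in each litter.

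Notch2 was the dominant receptor transcript in these buds. The gene lies on chromosome 3 (98013527 to 98150361, plus strand, mm10). It stood at 339.9, 177.6, 321.4, 234.1 and 70.8 CPM in controls 1 to 5, and at 89.95, 47.4, 68.99, 67.3, 157.2 and 96.0 CPM in mutants 1 to 6. Of the controls, 4 were above every mutant and control 5 lay among the mutants, of which 3 were below it. Controls averaged 228.7 ± 110.2 CPM (SD, n = 5) and mutants 87.8 ± 38.2 CPM (SD, n = 6). The log2 fold change was -1.21 (SE 0.30, edgeR adjusted p 0.0546), a ratio of 0.433, and it just missed the threshold. It was -0.74 without litter A (adjusted p 0.216). The value was -1.54 without control 5 (adjusted p 0.022), -1.54 without litter D (adjusted p 0.0485) and, with control 5 and mutant 5 both left out, -1.87 (adjusted p 0.00723), all by edgeR. The last of these alternatives was chosen after seeing the data. It leaves litter D without a control and litter C without a mutant. With litter as a block, it thus compares the genotypes within litters A and B alone. Litter D has no other control, so the fits without control 5 and without litter D estimate the same difference. Over the other fits that left out 1 library the adjusted p was 0.0688 to 0.219.

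The level of Notch2 followed the T-run index of the libraries closely. The annotated protein-coding Notch2 transcript carries a run of 22 T bases in its 3′ UTR (chromosome 3, 98149779 to 98149800, GENCODE M21). Of the 55 pairs of libraries, 53 had the same order by Notch2 level as by T-run index, and this held for 9 of 10 pairs of controls and 14 of 15 pairs of mutants. Among controls the order also matched in 10 of 10 pairs for Notch1 and Hey1 and in 9 of 10 for Notch3 and Jag1. For Jag2, Dll1, Lfng, Hes1 and Heyl it matched in 3 to 8 of 10. Over all 55 pairs the other genes of the set matched in 13 to 46. By litter, the index differed between mutants and controls by -1.06, -0.99, -0.41 and -0.11 bases in litters A to D, and Notch2 by -1.91, -1.74, -0.57 and -0.05 log2 units. With the index as a covariate the Notch2 difference was 0.09 (edgeR adjusted p 0.785). Among the 359 tested genes with longest T runs of 21 to 25 bases, the log2 fold change had a median of -0.23 and quartiles of -0.48 and -0.02, and 1.393% of these genes lay lower than Notch2. The index was lower in mutants in each of the 4 litters, so its part and that of the genotype in the Notch2 difference cannot be told apart.

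**Figure D3:**
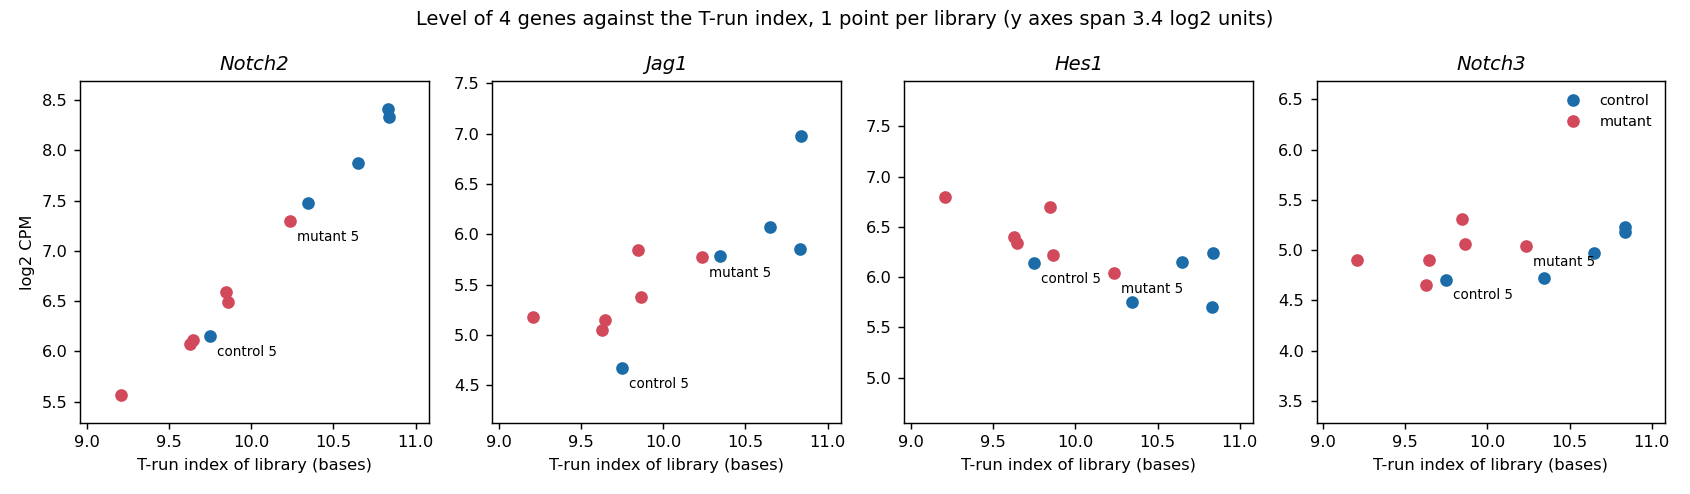
Each point is 1 library (blue control, red mutant), with the T-run index in bases on the x axis and log2 CPM on the y axis, at the same span for the 4 genes. Notch2 is higher at a higher index in controls and mutants alike, from mutant 2 (index 9.2047) to controls 1 and 3 (10.834 and 10.836). Hes1 is highest where the index is lowest. Notch3 varies the least of the 4 genes, although among controls its order matched that of the index in 9 of 10 pairs.

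Notch3, on chromosome 17 (32120820 to 32166880, minus strand), had nearly the same mean in both genotypes. It is the receptor known from the mural cells around vessels. Its level was 37.4, 26.3, 36.2, 31.2 and 26 CPM in controls 1 to 5, and 33.4, 29.8, 29.8, 25.1, 32.9 and 39.5 CPM in mutants 1 to 6. The groups covered nearly the same range, with means of 31.4 ± 5.33 CPM (SD, n = 5) and 31.7 ± 4.82 CPM (SD, n = 6). The log2 fold change was 0.05 (SE 0.10, edgeR adjusted p 0.807), and the value within litters ran from 0.01 to 0.13. The fit with the T-run index as covariate gave 0.24 (adjusted p 0.6). Its longest T run is 7 bases.

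Notch1, on chromosome 2 (26457903 to 26516663, minus strand), was the least abundant of the 3 receptors. Controls 1 to 5 had 13.8, 9.16, 17.01, 11.6 and 8.90 CPM, and mutants 1 to 6 had 10.1, 11.8, 10.4, 9.93, 10.6 and 16.1 CPM. Every mutant lay inside the range of the controls, and the highest library of each genotype came from litter B. The log2 fold change was -0.02 (SE 0.13, edgeR adjusted p 0.956). Other annotated genes (0610009E02Rik and Gm13568) overlap 9.76% of its exon bases, and counting without strand cannot separate them there. Such overlaps also cover 5.02% of the exon bases of Notch2 (Gm42820) and 6.03% of those of Notch3 (Gm17276).

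The makeup of the receptor transcripts was computed from the same levels. Notch2 made up 84.89%, 80.8%, 83.96%, 82.23% and 62.99% of the summed FPKM of the 3 receptors in controls 1 to 5, and 63.19%, 49.17%, 59.08%, 62.06%, 75.12% and 59.56% in mutants 1 to 6. The groups overlapped through control 5, whose share lay below those of mutants 1 and 5. Fewer cells with a transcript and less transcript per cell cannot be told apart in these bulk libraries, here and in all results below.

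Jag1 was the most abundant of the 3 ligands. The gene lies on chromosome 2 (137081456 to 137116644, minus strand), and its transcript has a run of 23 T bases in the 3′ UTR (137082153 to 137082175). Jag1 was at 57.6, 55.1, 125.8, 67.0 and 25.4 CPM in controls 1 to 5 and at 41.5, 36.1, 35.4, 33.1, 54.6 and 57.3 CPM in mutants 1 to 6. The 6 mutants all lay within the control range, which was set by control 5 at its lower end and control 3 at its upper end. The means were 66.2 ± 36.8 CPM (SD, n = 5) and 42.99 ± 10.4 CPM (SD, n = 6), and the log2 fold change was -0.39 (SE 0.17, edgeR adjusted p 0.203).

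The Jag1 difference depended on the litter more than that of any other gene of the 10 by unadjusted p. Mutants were lower in litters A, B and C (-0.54, -1.13 and -0.30 log2 units) and higher in litter D (0.43). The genotype by litter interaction had an unadjusted p of 0.000648 and an adjusted p of 0.95 in edgeR. With control 5 and mutant 5 both left out, a fit that rests on litters A and B alone, the log2 fold change was -0.75 (edgeR adjusted p 0.0146). Without control 5 alone it was -0.63 (edgeR adjusted p 0.0243), and without control 3 or mutant 6, both of litter B, it was -0.21 (adjusted p 0.561 and 0.56). Its order among libraries matched that of the T-run index in 46 of 55 pairs, and with the index as a covariate the difference was 0.12 (edgeR adjusted p 0.873). Among the genes with T runs of 21 to 25 bases, 33.15% were lower than Jag1. The part of the index in the Jag1 difference was not tested further.

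Jag2, the ligand known from the apical ectodermal ridge, was less abundant than Jag1 per length, at 1.09 against 11.4 FPKM in controls. The gene lies on chromosome 12 (112908590 to 112929495, minus strand). Jag2 stood at 2.57, 5.15, 5.45, 4.76 and 4.20 CPM in controls 1 to 5, and at 4.28, 5.76, 6.45, 4.76, 5.19 and 3.804 CPM in mutants 1 to 6. The groups overlapped broadly, although 2 mutants were above all controls, and control 1 was the lowest library. The log2 fold change was 0.17 (SE 0.22, edgeR adjusted p 0.72), with mutants higher in litters A, C and D and lower in litter B. It was 0.016 without control 1, 0.066 without mutant 2, 0.088 without control 5, 0.11 without mutant 3, 0.28 without control 2 and 0.33 without control 3 or mutant 6. None of 11 tested ridge and ectoderm markers, among them Fgf8 and Sp8, passed the adjusted threshold between genotypes. The full list of 12 markers summed to 267.3 to 537.8 CPM in controls and 314.9 to 475.4 CPM in mutants. That sum was lowest in control 1, as was Jag2. It was highest in control 4 (537.8 CPM), where Jag2 was at 4.76 CPM, and it was 357.8 CPM in mutant 3, where Jag2 was highest. The part of these tissues in the Jag2 values was not tested.

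Dll1 was close to the limit of detection. It is a ligand known from somites, neural progenitors and muscle precursors. The gene lies on chromosome 17 (15367354 to 15376872, minus strand), and 20.5% of its exon bases are shared with another annotated gene. It had 4 to 24 reads per library, or 0.951, 1.18, 0.545, 0.523 and 0.981 CPM in controls and 1.39, 0.397, 1.01, 0.535, 0.752 and 0.245 CPM in mutants. Mutants both above and below all controls occurred, and the highest and the lowest library were both mutants. The log2 fold change was -0.26 (SE 0.40, edgeR adjusted p 0.76), and no difference was detectable at this depth. Of 10 neural markers, Sox1, Neurog1, Neurog2 and Nhlh1 were under 0.5 CPM in all libraries, and the list summed to 53.1 to 77.1 CPM in controls and 51.45 to 75.6 CPM in mutants. Of 7 somite markers, Mesp2 and Ripply2 were under 0.5 CPM in all libraries, and the list summed to 28.3 to 74.97 CPM in controls and 24.3 to 44.97 CPM in mutants, with a median log2 fold change of -0.64 (1 higher and 3 lower of those tested). None of the tested genes of the neural (4), somite (4) and muscle precursor (6) lists passed the adjusted threshold between genotypes, and the part of these tissues in the Dll1 values was not tested.

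Lfng, the Fringe enzyme whose promoter is shown above, lies on chromosome 5 (140607320 to 140615545, plus strand). It had 15 to 43 reads per library. The CPM values were 1.90, 1.03, 1.53, 2.27 and 1.05 in controls 1 to 5, and 1.79, 2.18, 1.08, 2.56, 1.503 and 1.60 in mutants 1 to 6. All but 1 of the mutants fell within the control range. The log2 fold change was 0.25 (SE 0.32, edgeR adjusted p 0.71), with mutants higher in 3 litters and lower in litter C (-0.56).

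Hes1 had the largest fitted difference of the 3 target genes, with the higher mean in mutants. It encodes a repressor that many signals besides Notch can induce. The gene lies on chromosome 16 (30064384 to 30067796, plus strand). Controls 1 to 5 had 51.9, 53.9, 75.6, 70.9 and 70.6 CPM, and mutants 1 to 6 had 74.3, 111.4, 81.0, 84.1, 65.5 and 103.8 CPM. Of the mutants, 4 were above all controls and the other 2 (mutants 1 and 5) lay within the control range. The means were 64.6 ± 10.9 CPM (SD, n = 5) and 86.7 ± 17.6 CPM (SD, n = 6), and the fit gave a log2 fold change of 0.43 (SE 0.14, adjusted p 0.107 in edgeR), a ratio of 1.343.

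The Hes1 difference was 0.78, 0.46 and 0.23 log2 units in litters A, B and D and -0.11 in litter C. The fitted value was 0.28 without mutant 2 (edgeR adjusted p 0.12) and 0.20 without litter A (adjusted p 0.4). It was 0.68 without control 5 and mutant 5 (edgeR adjusted p 0.0296), an alternative chosen after seeing the data that rests on litters A and B alone. DESeq2 gave 0.42 (adjusted p 0.0281). Over all libraries the order by Hes1 was mostly opposite to that by T-run index, with the same order in 13 of 55 pairs. Among mutants the order was the same in 2 of 15 pairs, but among controls in 6 of 10. With the index as a covariate the difference was -0.03 (edgeR adjusted p 0.961). The longest T run of Hes1 itself is 10 bases. Why its order ran against the index among mutants and not among controls was not tested.

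The other target genes, Hey1 and Heyl, had fitted differences near 0 and below 0. Hey1, known from developing arteries, lies on chromosome 3 (8663359 to 8667256, minus strand). It was at 30.3, 18.6, 42.9, 24.3 and 13.7 CPM in controls 1 to 5, and at 29.7, 23.8, 26, 17.1, 23.4 and 25.3 CPM in mutants 1 to 6. The mutants all lay inside the wider range of the controls, and the log2 fold change was 0.04 (SE 0.20, edgeR adjusted p 0.937). Mutants were higher in litters A and D (0.16 and 0.62) and lower in litters B and C (-0.76 and -0.05), and the sign of the fitted value changed without control 5 (-0.14), control 2 (-0.07), mutant 1 (-0.02) or mutant 3 (-0.05), and it was 0.06 to 0.24 with each of the other libraries left out. With the T-run index as covariate it was 0.56 (adjusted p 0.486).

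Heyl, known from vascular mural cells and muscle, lies on chromosome 4 (123233556 to 123249875, plus strand) and had 27 to 98 reads per library. Controls 1 to 5 had 3.24, 4.27, 5.34, 5.23 and 2.03 CPM, and mutants 1 to 6 had 3.12, 4.50, 1.88, 2.32, 1.85 and 3.804 CPM. Of the mutants, 2 were below all controls and 4 lay within the control range. The log2 fold change was -0.35 (SE 0.24, edgeR adjusted p 0.438), and it came mostly from litter C (-1.44) and litter B (-0.48), with 0.01 and 0.04 in litters A and D. Without control 4 or mutant 5, both of litter C, it was -0.10, and with the T-run index as covariate it was -0.77 (adjusted p 0.518). None of the 6 tested mural cell markers, such as Pdgfrb and Rgs5, passed the adjusted threshold. They had a median log2 fold change of -0.24, with 1 higher and 5 lower. The full list of 7 mural cell markers summed to 92.95 to 295.9 CPM in controls and 72.8 to 98.2 CPM in mutants. The upper control value is control 2 alone, and the other controls were at 92.95 to 117.4 CPM. Their part in the Heyl value was not tested. None of the 12 endothelial markers passed it either, with sums of 243.4 to 386.7 CPM in controls and 243.2 to 382.2 CPM in mutants.

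**Figure D4:**
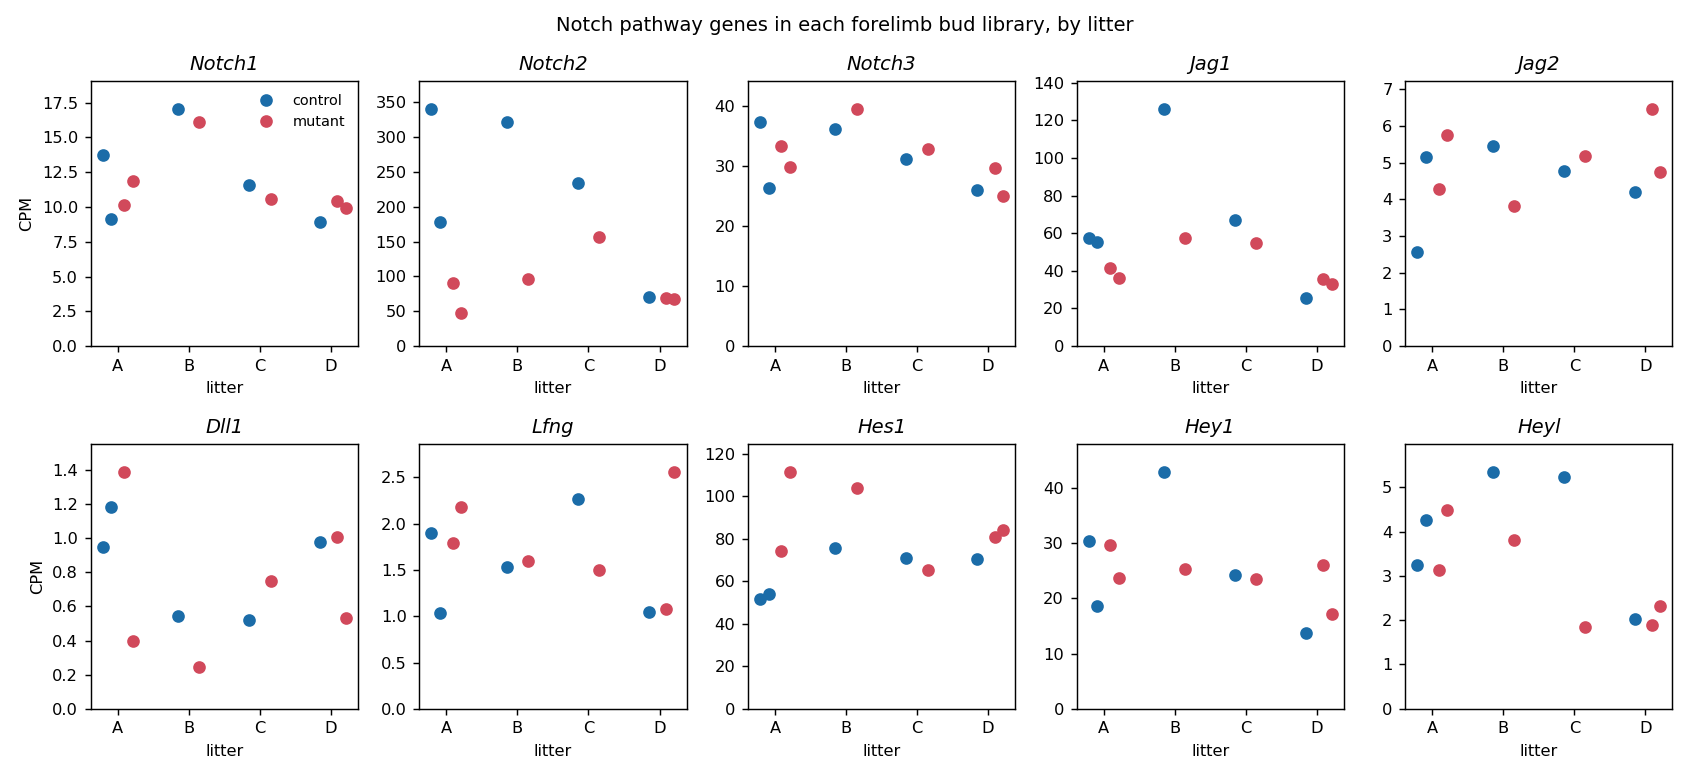
Each panel plots the CPM of 1 gene by litter, with 1 point per library (blue control, red mutant) and the y axis starting at 0. Notch2 separates the genotypes in litters A, B and C but not in litter D, where control 5 has 70.8 CPM beside mutants of 68.99 and 67.3 CPM.

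Litters were compared directly as well. None of the 10 genes passed an adjusted p of 0.05 between litters (edgeR, 3 litter coefficients together), as 0.0885% of all genes did. At an unadjusted p under 0.05 there were 3 of 10, Jag1 (0.000657), Notch1 (0.00837) and Notch3 (0.04), beside 13.5% of all genes. For the genotype by litter interaction the calls were 0 of 10 and 0% of all genes at the adjusted threshold. At an unadjusted p under 0.05 there were 2 of 10, Jag1 (0.000648) and Notch2 (0.0235), beside 3.82% of all genes. That test rests on 3 residual degrees of freedom.

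The rest of the pathway was read from the same fit over 54 further genes in 5 lists, of which 48 could be tested. None passed the adjusted threshold in either direction, beside 2.18% of all genes. At an unadjusted p under 0.05, 5 of the 48 were higher and 10 lower, beside 9.84% and 11.5% of all genes tested, and these shares are the background for the list counts that follow. The median log2 fold change of the 48 was -0.02, with 23 higher and 25 lower. A difference of the same sign in all 4 litters was seen in 26% of all genes tested, the background for the litter counts that follow. DESeq2 called 6 of them (Adam10, Hdac2, Kdm1a, Maml2, Ncstn and Nedd4), where it called 9.46% of all genes, and limma-voom called 1 (Hdac2), where it called 2.77%. Upper-quartile scaling called Hdac2 and Kdm1a, where it called 2.28%.

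Among other receptors and ligands, 4 of 6 were tested, and Dll3 and Dner had too few reads. Notch4 and Dll4, both known from endothelium, had log2 fold changes of 0.27 (SE 0.26) and 0.08 (SE 0.18). Of 6 other targets, Hes6 (-0.12, SE 0.19) and Hey2 (0.56, SE 0.27) could be tested. Hey2, an arterial gene, averaged 2.29 ± 1.30 CPM among the 5 controls and 3.37 ± 1.05 CPM among the 6 mutants (SD), with mutants higher in 4 of 4 litters and an edgeR adjusted p of 0.246. Hes3, Hes5, Hes7 and Nrarp had too few reads.

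The 18 genes that process ligands and receptors were all tested, with 1 higher and 6 lower at an unadjusted p under 0.05 (21.4% of all genes in either direction). Adam10, the protease that makes the first activating cut in the receptor, was at 130.5 ± 22.2 CPM in controls and 94.8 ± 25.7 CPM in mutants (SD, n = 5 and 6). It was lower in 4 of 4 litters (log2 fold change -0.45, SE 0.15, edgeR adjusted p 0.12). Ncstn, a subunit of the gamma-secretase that makes the next cut, had -0.30 (adjusted p 0.0918). Neurl1a, an E3 ligase acting on ligands, had 0.41 (adjusted p 0.266). Ncstn is named after its values were seen.

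Of the 15 genes of the nuclear complex, 3 were higher and 1 lower at an unadjusted p under 0.05, a share near the 21.4% of all genes. Maml2, a coactivator of the Notch complex, was at 51.35 ± 10.97 CPM in controls and 32.4 ± 9.01 CPM in mutants (SD, n = 5 and 6), with a log2 difference of -0.63 (SE 0.18, adjusted p 0.0841 in edgeR). It carries a T run of 24 bases. Tle1, a corepressor, had 0.30 (adjusted p 0.116). Hdac2 and Kdm1a, enzymes of repressor complexes with many roles outside this pathway, came nearest to the threshold and are named after their values were seen. Hdac2 had 0.28 (SE 0.07, adjusted p 0.0538), and Kdm1a had 0.24 (SE 0.06, adjusted p 0.0546). Kdm1a was at 126.4 to 146.1 CPM in mutants and 105.7 to 123.9 CPM in controls, which do not overlap, as in 2.59% of all genes tested.

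Of the 9 genes of receptor turnover and inhibition, 1 was higher and 3 lower at an unadjusted p under 0.05 (all genes 21.4%). Dtx4 and Dtx1, E3 ligases of the Deltex family, had log2 fold changes of -0.56 (SE 0.25, edgeR adjusted p 0.22) and -0.51 (SE 0.31, adjusted p 0.38), and both were lower in 4 of 4 litters. Their levels were low, at 3.28 and 1.58 CPM in controls.

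**Figure D5:**
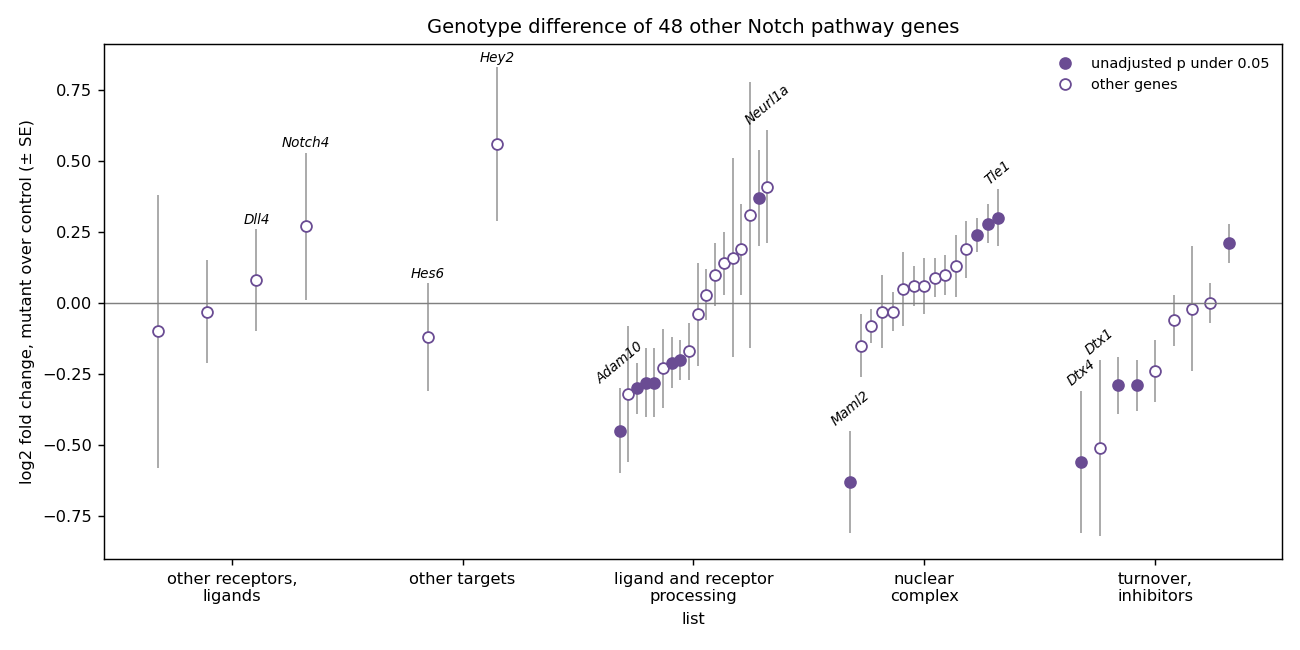
Each point is the log2 fold change (mutant over control) of 1 of 48 other pathway genes with its SE, sorted within 5 lists, and filled points have an unadjusted p under 0.05. Hey2 (0.56) is the highest and Maml2 (-0.63) the lowest of these.

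The genes whose pattern was most like each of the 10 were taken from 9637 or 9638 named genes with at least 5 CPM, by Pearson's r of log2 CPM over the 11 libraries after subtraction of litter means. With so many genes and so few libraries, a high r was found for each of the 10 genes, and the values are descriptions. Notch2 was most like Ric1 (r 0.999, Spearman's rho 0.991) and Mtmr2 (r 0.999, rho 1.0), whose longest T runs are 29 and 22 bases and whose log2 fold changes were -1.14 and -0.69. Of the 50 genes most like Notch2, 34 (68%) had a T run of 18 bases or more, where 7.783% of all genes searched did. For Jag1 this share was 8.333%, and for Hes1 it was 2.083%. Jag1 was most like Ctdsp2 (r 0.974, rho 0.936), and Hes1 most like Pfdn1 (r 0.988, rho 0.973) and Triap1 (r 0.987, rho 0.955). For the other 7 genes the closest matches were Fermt3 for Notch1, Tcirg1 for Notch3, Grap for Jag2, Fitm2 for Dll1, Dcaf5 for Lfng, Efna4 for Hey1 and Lztfl1 for Heyl, with r from 0.894 to 0.979.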

How the data were processed

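The deposited table holds raw counts. Per the file headers, the authors ran featureCounts v1.4.6-p4 on mm10 alignments with GENCODE M9 and a mapping quality of at least 10, and no strand option was set. STAR 2.5.4b is listed in the submitters' processing notes. The header lists 12 alignment files, of which 11 have columns used here. Exon lengths are those of the deposited table. Groups and litters came from the titles.

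Counts were analysed in R 4.3.3 with edgeR 4.0.16: filterByExpr (15821 genes, 99.9% of counts), TMM scaling, and a two-sided quasi-likelihood F test with litter as a block and Benjamini-Hochberg adjustment over all genes tested. Log2 CPM used a prior count of 2. In simulated counts for this comparison (15821 genes, 11 libraries), 64% and 73.33% of genes with true log2 changes of 1 and -1 were called, 98% and 82.61% at 2 and -2, and 0.09168% of the genes without a change. The simulation held no differences between litters and drew each gene independently, so these shares may not hold for the real libraries. DESeq2 1.42.0, limma 3.58.1 and the other alternatives are given in the closing section. T runs came from GENCODE M21 transcripts, and 96.7% of tested genes had a value. Named genes were all 10 genes of the set and, per further list, genes past the threshold or else the 2 largest differences at 1 CPM or more.

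Litter pairs the samples, per the titles. As a check, deviations from group means correlated across genes at a median of 0.13 (-0.16 to 0.37) over 8 same-litter pairs of opposite genotype and -0.02 (-0.33 to 0.17) over 22 others. No 2 libraries of a group were alike within sampling noise (lowest chi-square per degree of freedom 7.042). The genes and lists were chosen with earlier results of these data known.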

Additional observations from a re-analysis of the deposited data

Results flagged for a closer look

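Of 40 comparisons of a highest or lowest library with the rest of its genotype over the 10 genes, 1 lay beyond Dixon's criterion, where chance gives about 1 among 20 groups. Notch1 was 4.023 on the log2 CPM scale (16.1 CPM) in mutant 6, and the gap to the next mutant was 0.638 of the range of the 6 mutants. Control 3, of the same litter, was the highest control for Notch1.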

How the results depend on the processing

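The number of calls varied with the tool, the filter and the libraries. The count over all genes was 1566 without the filter on low counts, 550 with at least 1 CPM in 5 libraries, 1159 with DESeq2, 3 when the T-run index entered as covariate, 9, 3, 1 and 148 without litters A to D, and 782 without control 5 and mutant 5. Without the litter as replicate block it was 13, with 0 of the 10 genes and 0 other pathway genes. Leaving out each library gave 1 to 850. These fits are not all separate checks, since a litter left with only mutants or only controls carries no information on the genotype difference. Leaving out control 3, mutant 6 or litter B thus gives the same comparison, as does leaving out control 4, mutant 5 or litter C. The same holds for control 5 and litter D, and leaving out both control 5 and mutant 5 leaves litters A and B. Of the 10 genes, 3 were called without the filter, 1 with the CPM filter, 2 with DESeq2, 1 with limma-voom, 1 without litter D, 3 without control 5 and mutant 5, and 0 to 2 with each library left out. Of the other pathway genes, 2 were called with upper-quartile scaling, 5 without the filter, 2 with the CPM filter, 6 with DESeq2, 1 with limma-voom, 4 without control 5 and mutant 5, and 0 to 3 with each library left out. Without the filter, litters differed in 4 of the 10 genes (5.41% of all genes) and the interaction was called in 2 (1.5% of all genes). Without the filter, the unadjusted edgeR p of Notch2 was 2.74e-43, against 0.0016 in the main fit, at nearly the same log2 fold change (-1.21). P-values and calls without the filter are thus not comparable with those of the main fit. The cause of the moves in these counts was not tested.

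The sign of some log2 fold changes depended on the setting, among them that of Notch2 (-1.21). When the T-run index entered as covariate, Notch1 was 0.13, Notch2 0.085, Jag1 0.12, Jag2 -0.068, Dll1 0.31 and Hes1 -0.0303, while Notch3 (0.24), Hey1 (0.56) and Heyl (-0.77) kept their sign. Notch1 was also 0.024 with upper-quartile scaling, 0.0086, 0.00073 and 0.0118 without litters A, B and C, and -0.0904 to 0.0818 with each library left out. Hey1 was -0.10 without the replicate block, -0.0303 and -0.14 without litters A and D, -0.18 without control 5 and mutant 5, and -0.14 to 0.24 with each library left out. Notch3 was -0.0068 to 0.14 with each library left out. Lfng and Heyl kept their sign in all alternatives run. With under 50 reads per library, Dll1 and Lfng were limited by depth. Dll1 had too few reads for the CPM filter and has no value there.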

Other observations

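The makeup of the ligands and targets by summed FPKM overlapped between genotypes. Jag1 made up 77.42% to 93.61% of the 3 ligands in controls and 76.86% to 90.8% in mutants. Hes1 made up 71.98% to 88.27% of the 3 targets in controls and 78.96% to 87.88% in mutants. Heyl made up 1.013% (control 5) to 2.532% of the targets in controls and 0.7648% to 1.4% in mutants, so that control 5 again lay among the mutants. All 6 tested macrophage markers of 7 had a higher fitted value in mutants (median log2 fold change 0.59), and none passed the adjusted threshold. All 7 macrophage markers together summed to 2.59 (control 5) to 24.04 CPM in controls and 6.05 to 29.6 CPM in mutants.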
